A study of Homo sapiens with 12 samples.

Results

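The genes described here are 49 genes for RNA-binding proteins and snRNP proteins of pre-mRNA splicing, matched by symbol to the gene identifiers among the 61906 genes of both count tables. They comprise 13 SR and SR-like proteins, 21 heterogeneous nuclear ribonucleoproteins (hnRNPs, with PTBP1, also called hnRNP I) and 15 core spliceosome proteins and cofactors. Each symbol matched 1 identifier, and all 49 genes passed the filter on low counts in both experiments. The RNA came from MOLM-14, an established human line of acute myeloid leukemia (AML). In the knockdown experiment, lentivirus delivered either a control shRNA (shControl) or an shRNA against the RNA helicase DDX5 (shDDX5), and cells were taken 96 hours after infection. In the compound experiment, cells were exposed for 6 hours to 0.1% DMSO or to RX-5902 at 100 nM, a compound reported to bind DDX5 in its phosphorylated form. Each group had 3 libraries, called biological replicates in the labels, and p-values measure the spread between these libraries. A single cell line was used, the labels name a single shRNA against DDX5, and no group with DDX5 restored is among the samples. The 2 experiments have separate controls and differ in agent and collection time together, so these cannot be told apart.

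Splicing removes introns through the spliceosome, in which the U1 snRNP recognises the 5′ splice site. U2AF and the U2 snRNP with its SF3A and SF3B subcomplexes recognise the 3′ splice site and branch point. The U4/U6.U5 tri-snRNP contains PRPF8 and PRPF3. SR proteins bind exons through RNA recognition motifs and recruit these particles through their arginine-serine domains, whereas many hnRNPs repress exons, package nascent transcripts or act in RNA export and decay. Many SR and hnRNP genes control their own RNA through poison exons or retained introns, a layer that counts per gene do not show. Splicing factor mutations in SRSF2, SF3B1 and U2AF1 are known from myeloid neoplasms. DDX5 is itself a cofactor of spliceosomes and of transcription.

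Libraries of the knockdown held 17603589 to 19674098 counts and those of the compound 20264250 to 20367575. DDX5 stood at 755, 718 and 729.5 CPM (read counts scaled to library size with TMM factors) in shControl and at 159, 164 and 161 CPM in shDDX5 (log2 fold change -2.19, SE 0.08, edgeR adjusted p = 3.44e-06), in the direction of the label in every library. Under RX-5902 DDX5 RNA rose slightly over DMSO (log2 fold change 0.31, SE 0.04, edgeR adjusted p = 1.47e-08). The library shDDX5 replicate 1 stood apart: its chi-square per gene was 46.3 against replicate 2 and 46.4 against replicate 3, while the other pairs of replicates lay between 1.68 and 5.93. Its deviation from replicates 2 and 3 went with exon length, with a Spearman rho of -0.38 over 14428 genes and of -0.67 over the 49 splicing genes, so long genes such as PRPF8 were low in it and short genes such as SRSF2 and SNRPA high. Mitochondrial genes took 10.3% of its counts, against 8.09% and 7.71% in the other shDDX5 libraries and 6.17% to 7.755% in shControl, and the part of this in the results was not tested. Knockdown counts per class and list, and the values of some genes, are therefore also given without shDDX5 replicate 1. Of 10 myeloid markers, all reached 1 CPM in both knockdown groups and all but CD14 in both compound groups, and their summed level was 4207 to 4539 CPM in shControl, 13412 to 14825 CPM in shDDX5, 1425 to 1475 CPM in DMSO and 1250 to 1268 CPM in RX-5902. The summed T and NK cell markers were at 70.0 to 75.2 CPM in shControl, 109 to 162 CPM in shDDX5, 15.3 to 16.3 CPM in DMSO and 23.5 to 26.0 CPM in RX-5902, with CD3E, CD3G and CD247 below 1 CPM throughout. The epithelial and packaging cell markers were at 9.96 to 11.2, 6.90 to 8.75, 4.21 to 4.90 and 18.04 to 20.42 CPM in the same order, with EPCAM, KRT18 and CDH1 below 1 CPM throughout. B cell markers summed to at most 2.49 CPM and erythroid markers to at most 0.15 CPM. Whether these marker shifts have a part in the changes of the splicing genes was not tested.

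Levels of the 49 genes spanned more than 2 orders of magnitude. Per kilobase of exon, counting all annotated exon bases of a gene, HNRNPA1 was highest in shControl at 329 CPM per kb. HNRNPK followed at 189 and HNRNPF at 184 CPM per kb. The lowest were U2AF1 at 1.62, SRSF8 at 3.36 and HNRNPUL2 at 7.95 CPM per kb. In DMSO the same 3 genes were lowest, and HNRNPA1 was again highest at 504 CPM per kb. The U2AF1 level is uncertain, because the tables also hold a near-identical annotated copy of U2AF1 with 0 counts, and reads that fit both copies may have been dropped. HNRNPUL2 shares 44.3% of its exon bases on the same strand with an annotated readthrough transcript, so some of its reads may be uncounted. HNRNPA1 has processed pseudogenes of similar sequence, so its reads may have been split.

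Knockdown of DDX5 was accompanied by lower RNA of most of these splicing genes. Of the 49 genes, 34 fell, 5 rose and 10 did not pass the test (edgeR quasi-likelihood test on 14463 genes, threshold 0.05 for the Benjamini-Hochberg adjusted p). Over all genes tested, 28.3% fell and 28.4% rose, 56.7% in all. Among the 7973 genes at least as abundant as the lowest of the 49, 32.9% fell and 28.8% rose. The median log2 fold change was -0.47 over the splicing genes, against -0.0007 over all genes and -0.03 over that abundant set. Their summed level went from 18952 ± 330 CPM (SD, n = 3) in shControl to 12961 ± 289 CPM in shDDX5. A fall of at least 2-fold was called for 8 of the 49, compared with 10.3% of all genes tested, and no rise reached 2-fold. The shControl and shDDX5 values did not overlap for 43 of the 49, against 66.1% of all genes. Without shDDX5 replicate 1, 39 fell and 6 rose, with 35.7% of all genes called in each direction. In bulk RNA, fewer cells with a transcript and less of it per cell cannot be told apart.

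**Figure D1:**
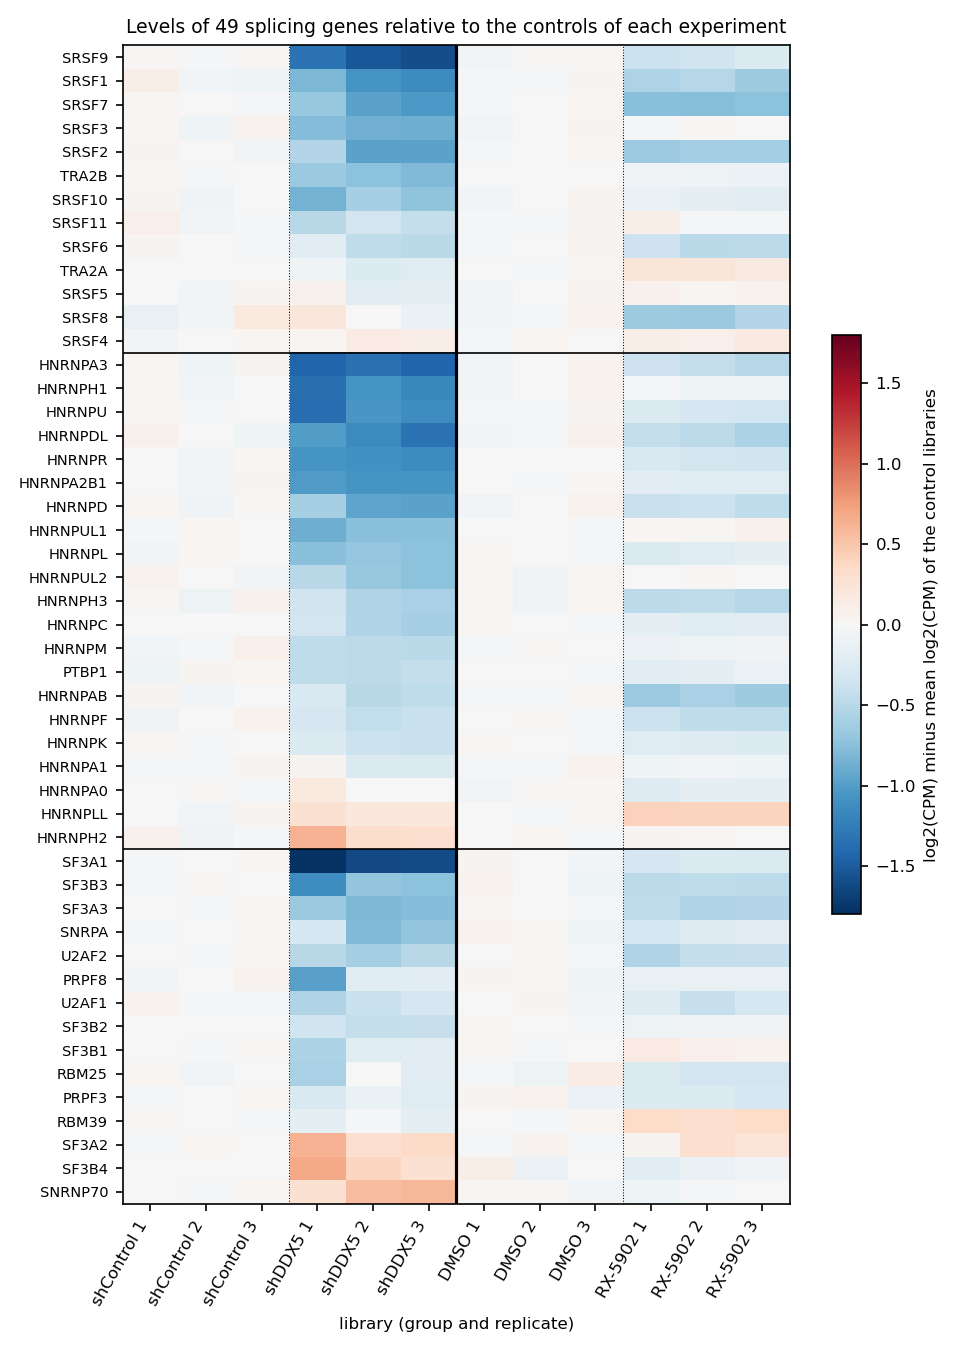
Heat map of the 49 splicing genes (rows, by class and by knockdown change) in the 12 libraries (columns). Colour shows log2 CPM minus the mean log2 CPM of the 3 control libraries of the same experiment. Most rows are blue in all 3 shDDX5 libraries, where the median over the 49 genes lies between -0.50 and -0.48, and paler blue in RX-5902, where it lies between -0.22 and -0.19.

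SR proteins, the exon-binding activators, formed a class in which 9 of 13 fell with the knockdown and none rose (median log2 fold change -0.72). Without shDDX5 replicate 1, 11 fell and 1 rose, with a median of -0.66. SRSF9, a small SR protein (chr12:120461672-120469748), stood at 199, 193 and 199 CPM in shControl and at 78.4, 68.4 and 65.6 CPM in shDDX5. All shDDX5 libraries lay far below all controls, a 2.79-fold lower level (log2 fold change -1.48, SE 0.09, edgeR adjusted p = 9.66e-06). Its paralog SRSF1 (chr17:58000919-58007346), the founding SR protein, was at 158, 141 and 137 CPM in shControl and at 83.2, 69.8 and 66.1 CPM in shDDX5, again without overlap (log2 fold change -0.99, SE 0.11, edgeR adjusted p = 0.000142). SRSF1 shares 32.7% of its exon bases with another annotated gene on the same strand, which had 1 count over the knockdown libraries. Reads in the shared bases may not have been counted, so the SRSF1 level is uncertain. SRSF9 shares 46.7% of its exon bases with GATC on the other strand, which rose by 1.03 on the log2 scale. Whether counting used the strand is not given in the sources used here, so reads of the pair may have been mixed.

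SRSF3 and SRSF7 are closely related SR proteins that couple splicing and 3′ end formation to RNA export through NXF1. For SRSF3 (chr6:36594353-36605600) the shControl libraries gave 682, 636 and 699 CPM and the shDDX5 libraries 391, 369 and 364 CPM. SRSF7 (chr2:38743599-38751494) went from 245, 237 and 236 CPM to 149, 123 and 117 CPM. Both pairs of groups were separate, with log2 fold changes of -0.84 (SE 0.08, edgeR adjusted p = 8.05e-05) and -0.89 (SE 0.11, edgeR adjusted p = 0.000209). SRSF2 (SC35, chr17:76734115-76737333) read 273, 263 and 256 CPM in shControl and 184, 136 and 136 CPM in shDDX5, with replicate 1 the highest of the 3 knockdown libraries (log2 fold change -0.80, SE 0.13, edgeR adjusted p = 0.000978). It shares 27.7% of its exon bases with MFSD11 on the other strand, a gene with far fewer reads in these libraries. SRSF8, an intronless relative of SRSF2, was scarce, at 13.1, 13.9 and 16.3 CPM in shControl and 16.5, 14.3 and 13.3 CPM in shDDX5. The SRSF8 groups overlapped (log2 fold change 0.02, SE 0.12, edgeR adjusted p = 0.888).

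Of the transformer-2 pair, splicing activators of purine-rich exons, TRA2B fell and TRA2A did not pass the test. TRA2B (chr3:185914558-185938103) was at 297, 285 and 291 CPM in shControl and at 182, 174 and 167 CPM in shDDX5, clearly apart (log2 fold change -0.74, SE 0.08, edgeR adjusted p = 0.00011). TRA2A was at 80.8, 80.5 and 79.6 CPM and 76.2, 67.4 and 69.2 CPM, with separate groups and a smaller change (log2 fold change -0.18, SE 0.08, edgeR adjusted p = 0.0896). Without shDDX5 replicate 1 it did pass (log2 fold change -0.23, edgeR adjusted p = 0.000175). SRSF4 and SRSF6 are large SR proteins with long arginine-serine domains. SRSF6 was at 207, 200.1 and 196 CPM in shControl and 176, 146 and 144 CPM in shDDX5, lower in every knockdown library (log2 fold change -0.37, SE 0.10, edgeR adjusted p = 0.0127). SRSF4 read 105, 109 and 112 CPM and 112, 121 and 118 CPM, with overlapping groups and no call (log2 fold change 0.10, SE 0.08, edgeR adjusted p = 0.284), and rose by 0.13 on the log2 scale without shDDX5 replicate 1 (edgeR adjusted p = 0.0153). The SRSF6 call did not hold without shControl replicate 1 (edgeR adjusted p = 0.0534) or without shDDX5 replicate 3 (edgeR adjusted p = 0.0556). Of the remaining SR genes, SRSF10, a splicing repressor when dephosphorylated, and SRSF11 fell (log2 fold changes -0.72 and -0.42), and SRSF5 was not called (log2 fold change -0.09, edgeR adjusted p = 0.448), but fell without shDDX5 replicate 1 (log2 fold change -0.19, edgeR adjusted p = 0.000812).

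Among the hnRNPs, 17 of 21 fell with the knockdown and 2 rose, with a median log2 fold change of -0.49. Leaving out shDDX5 replicate 1 gave 18 that fell and 2 that rose, with a median of -0.57. HNRNPA3 (chr2:177212694-177223959), an A/B-type hnRNP, fell most. It stood at 402, 372 and 408 CPM in shControl and 146, 155 and 147 CPM in shDDX5, 2.64-fold lower and without overlap (log2 fold change -1.40, SE 0.08, edgeR adjusted p = 7.4e-06). This value is uncertain, since 53.6% of the HNRNPA3 exon bases are shared with NFE2L2 on the other strand, which itself rose by 0.55 on the log2 scale. HNRNPU (chr1:244840638-244864560), the scaffold attachment factor that binds chromatin-associated RNA, read 1469, 1398 and 1443 CPM in shControl and 556, 695 and 660.2 CPM in shDDX5. It fell 2.26-fold with all libraries separated (log2 fold change -1.17, SE 0.11, edgeR adjusted p = 4.94e-05). Its relatives HNRNPUL1 and HNRNPUL2 also fell. HNRNPUL1 was at 348, 362 and 352 CPM and 192, 210.1 and 209 CPM in the 2 groups (log2 fold change -0.80, SE 0.08, edgeR adjusted p = 8.49e-05), and HNRNPUL2 at 44.7, 42.8 and 41.3 CPM and 30.3, 26.7 and 25.7 CPM (log2 fold change -0.64, SE 0.09, edgeR adjusted p = 0.000572). HNRNPUL2 shares 44.3% of its exon bases with an annotated readthrough transcript.

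The near-identical proteins hnRNP H1 and hnRNP H2, which bind G-runs, moved in opposite directions in the knockdown. HNRNPH1 (chr5:179614178-179634784) was at 764, 718 and 748 CPM in shControl and at 291, 352 and 332 CPM in shDDX5. HNRNPH2, on the X chromosome (chrX:101408222-101414133), was at 86.8, 78.8 and 81.4 CPM and 127, 103 and 102 CPM. In neither gene did the groups overlap, with H1 low and H2 high in every shDDX5 library (log2 fold changes -1.19, SE 0.10, edgeR adjusted p = 2.95e-05, and 0.42, SE 0.11, edgeR adjusted p = 0.00987). In CPM, H1 stayed the higher of the pair in shDDX5, with means of 325 CPM for H1 and 110 CPM for H2. Divided by all annotated exon bases (9480 for H1 and 2296 for H2), H1 was at 78.4 CPM per kb in shControl and 34.3 in shDDX5. H2 was at 35.9 and 48.1 CPM per kb. Annotated exon bases need not match the expressed transcripts, so the order of the pair per kb is uncertain. The HNRNPH2 call was lost without shControl replicate 2 (edgeR adjusted p = 0.0566) and without shControl replicate 3 (edgeR adjusted p = 0.0505). Since the 2 genes are similar in sequence, reads may have been exchanged between them.

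HNRNPL and HNRNPLL, binders of CA-rich RNA, likewise went in opposite directions. HNRNPL (chr19:38836370-38852347) stood at 281, 297 and 291 CPM in shControl and 172, 178 and 173 CPM in shDDX5, a clear fall (log2 fold change -0.73, SE 0.08, edgeR adjusted p = 9.63e-05). HNRNPLL, known for the switch of CD45 exons in lymphocytes, stood at 76.8, 74.1 and 79.3 CPM and 92.9, 87.4 and 87.7 CPM. Its 3 knockdown libraries were all above the controls, but the rise was small (log2 fold change 0.22, SE 0.08, edgeR adjusted p = 0.0377) and was not called when any library other than shDDX5 replicate 1 was left out (edgeR adjusted p from 0.065 to 0.181). It was not called by DESeq2 (adjusted p = 0.0655) or without a filter on low counts (edgeR adjusted p = 0.132), and was called without shDDX5 replicate 1 (edgeR adjusted p = 0.00158). HNRNPD (AUF1, a factor of AU-rich element decay, chr4:82352498-82374503) and its neighbour on chromosome 4, HNRNPDL (chr4:82422565-82430462), both fell. HNRNPDL went from 417, 395 and 376 CPM to 198, 179 and 157 CPM (log2 fold change -1.15, SE 0.11, edgeR adjusted p = 5.05e-05). HNRNPD went from 432, 403 and 426 CPM to 277, 217 and 216 CPM (log2 fold change -0.83, SE 0.11, edgeR adjusted p = 0.000436). Neither gene had overlapping groups.

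The A1 and A2/B1 proteins repress exons and are partners in hnRNP core particles. HNRNPA2B1 (chr7:26171151-26201529) read 1525, 1467 and 1578 CPM in shControl and 751, 733 and 732 CPM in shDDX5, 2.06-fold lower (log2 fold change -1.04, SE 0.08, edgeR adjusted p = 2.72e-05). HNRNPA1 (chr12:54280193-54287088) read 2169.6, 2163 and 2280.4 CPM in shControl and 2284, 1842 and 1849 CPM in shDDX5. Its shDDX5 replicate 1 was above all controls while replicates 2 and 3 were below them, and the change was not called (log2 fold change -0.15, SE 0.11, edgeR adjusted p = 0.295). Without that library HNRNPA1 fell by 0.26 on the log2 scale (edgeR adjusted p = 1.42e-05). HNRNPR, a relative of SYNCRIP, fell 2.13-fold (log2 fold change -1.09, edgeR adjusted p = 1.57e-05). HNRNPH3, HNRNPC, HNRNPM, PTBP1, HNRNPAB, HNRNPF and HNRNPK all fell by less, with log2 fold changes from -0.49 to -0.34. PTBP1, the polypyrimidine tract repressor, was at 609.9, 663 and 655 CPM in shControl and 467, 464 and 479 CPM in shDDX5 (log2 fold change -0.45, SE 0.08, edgeR adjusted p = 0.00181). HNRNPA0, a single-exon A/B-type gene, was not called (log2 fold change 0.06, edgeR adjusted p = 0.566).

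Of the 15 core spliceosome genes and cofactors, 8 fell, 3 rose and 4 were not called in the knockdown. The median log2 fold change was -0.41, and -0.21 without shDDX5 replicate 1, in which 10 fell and 3 rose. The 3 subunits of SF3A, the heterotrimer that joins the U2 snRNP to form its mature 17S particle, did not move together. SF3A1 (chr22:30331988-30356919) stood at 157, 161 and 165 CPM in shControl and 46.8, 52.1 and 53.0 CPM in shDDX5. This was 3.18-fold lower, the largest fall among the 49 genes, with no overlap (log2 fold change -1.67, SE 0.08, edgeR adjusted p = 4.52e-06). SF3A3 (chr1:37956975-37990075) was at 163, 160.5 and 167 CPM in shControl and 103, 93.4 and 95.6 CPM in shDDX5, lower in every knockdown library (log2 fold change -0.75, SE 0.08, edgeR adjusted p = 0.000101). SF3A2 (chr19:2236824-2248655) was at 89.8, 94.5 and 92.6 CPM and 143, 114 and 118 CPM, higher in every knockdown library and highest in replicate 1 (log2 fold change 0.44, SE 0.10, edgeR adjusted p = 0.00695). Without that replicate the log2 fold changes were -1.62 for SF3A1, -0.79 for SF3A3 and 0.33 for SF3A2.

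The promoters of the 3 SF3A genes are shown because their transcripts diverged in the knockdown. Each line gives the 250 bases before the RefSeq transcription start on GRCh38.p14, 5′ to 3′ on the gene's strand, with GGGCGG (the GC box bound by SP factors) and CCGGAAGT (a core bound by ETS factors), or its reverse complement ACTTCCGG, in capitals. The windows lie at chr22:30356895-30357144 on the minus strand, chr19:2236574-2236823 on the plus strand and chr1:37990023-37990272 on the minus strand.
SF3A1: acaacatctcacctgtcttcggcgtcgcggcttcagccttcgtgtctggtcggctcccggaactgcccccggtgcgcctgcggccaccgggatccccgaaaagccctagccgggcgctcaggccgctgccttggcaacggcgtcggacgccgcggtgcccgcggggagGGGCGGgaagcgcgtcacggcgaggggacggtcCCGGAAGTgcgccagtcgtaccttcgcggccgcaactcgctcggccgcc
SF3A2: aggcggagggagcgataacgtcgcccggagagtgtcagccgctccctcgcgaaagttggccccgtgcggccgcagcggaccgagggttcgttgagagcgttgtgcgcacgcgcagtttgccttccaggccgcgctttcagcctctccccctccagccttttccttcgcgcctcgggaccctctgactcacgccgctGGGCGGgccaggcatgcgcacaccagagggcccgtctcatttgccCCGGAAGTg
SF3A3: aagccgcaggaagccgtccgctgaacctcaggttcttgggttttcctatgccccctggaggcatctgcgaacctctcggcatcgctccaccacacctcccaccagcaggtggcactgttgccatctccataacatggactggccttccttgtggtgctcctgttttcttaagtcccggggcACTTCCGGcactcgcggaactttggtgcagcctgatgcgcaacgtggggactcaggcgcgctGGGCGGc
All 3 windows held CCGGAAGT on one strand and GGGCGG. The CCGGAAGT match began 49 bases before the start in SF3A1, 9 bases before it in SF3A2 and, on the other strand, 69 bases before it in SF3A3. Matches of letters are a description and not binding sites, and these shared letters stand beside changes of different sign.

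SF3B, the other U2 subcomplex, holds the branch point protein SF3B1 and was also uneven. SF3B3 (chr16:70523791-70577670), a WD40-repeat scaffold, was at 326, 337 and 333 CPM in shControl and 153, 202 and 199 CPM in shDDX5, without overlap (log2 fold change -0.85, SE 0.12, edgeR adjusted p = 0.000435). SF3B4 (chr1:149923317-149927803), an RNA recognition motif protein that contacts the pre-mRNA near the branch point, was at 127, 128 and 127 CPM and 204, 167 and 154 CPM. Every shDDX5 library exceeded every control for SF3B4 (log2 fold change 0.46, SE 0.11, edgeR adjusted p = 0.00786). SF3B1 (chr2:197388515-197435079) was at 476, 459 and 480.0 CPM in shControl and 317, 406 and 409.7 CPM in shDDX5, lowest in replicate 1. Its fall was small (log2 fold change -0.32, SE 0.11, edgeR adjusted p = 0.0391), went to -0.21 without shDDX5 replicate 1 (edgeR adjusted p = 8.73e-05), and was not called with upper-quartile scaling (edgeR adjusted p = 0.0703), after a correction for exon length (log2 fold change -0.16, edgeR adjusted p = 0.0731) or when any one shControl library was left out (edgeR adjusted p from 0.0835 to 0.11). SF3B2 fell (log2 fold change -0.41, edgeR adjusted p = 0.00194), a call lost after that correction (edgeR adjusted p = 0.0618).

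The genes of the U1-70K and A proteins, which both bind U1 snRNA directly, were split. SNRNP70 (U1-70K, chr19:49085419-49108605) was at 276, 275 and 285 CPM in shControl and 337, 410.3 and 421 CPM in shDDX5, above the controls in each library (log2 fold change 0.48, SE 0.10, edgeR adjusted p = 0.00417). SNRPA (the U1 snRNP A protein, chr19:40750637-40765389) was at 106, 109 and 111 CPM and 87.0, 62.8 and 66.5 CPM, below the controls in each library (log2 fold change -0.59, SE 0.13, edgeR adjusted p = 0.00417). The large and small subunits of U2AF, the 3′ splice site factor, both fell: U2AF2 by a log2 fold change of -0.53 (edgeR adjusted p = 0.000592) and U2AF1 by -0.41 (edgeR adjusted p = 0.00665). The U2AF1 call was lost with length correction and the replicate block together (log2 fold change -0.24, edgeR adjusted p = 0.0671). The 4 genes not called were PRPF8 and PRPF3 of the tri-snRNP and the SR-related cofactors RBM25 and RBM39. PRPF8 rested on the library that stood apart, at 575, 589.7 and 622 CPM in shControl and 302, 514 and 524 CPM in shDDX5. Its log2 fold change was -0.41 with all libraries (SE 0.19, edgeR adjusted p = 0.0992) and -0.20 without shDDX5 replicate 1 (edgeR adjusted p = 0.000281). The log2 fold changes of PRPF3, RBM25 and RBM39 were -0.20, -0.24 and -0.12, and of these PRPF3 was called without that library (log2 fold change -0.17, edgeR adjusted p = 0.00332).

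**Figure D2:**
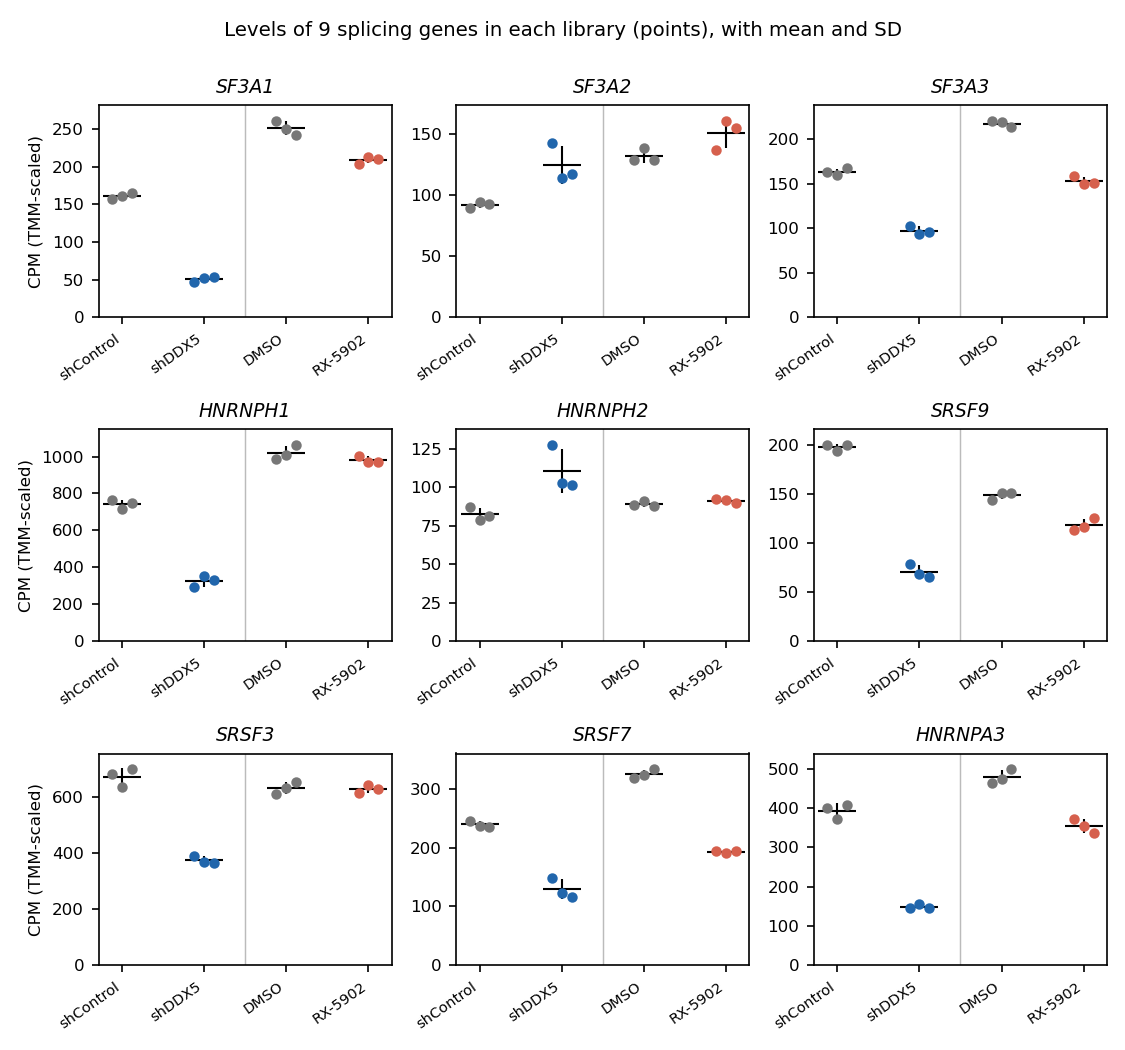
TMM-scaled CPM (y axis, starting at 0, scaled per gene) of 9 splicing genes in each library (points) by group (x axis), with the mean (horizontal line) and SD (vertical line) of the 3 libraries. SF3A1, SF3A3, HNRNPH1, SRSF9, SRSF3, SRSF7 and HNRNPA3 were lower in all 3 shDDX5 libraries than in any shControl library, and SF3A2 and HNRNPH2 were higher.

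After 6 hours of RX-5902 the splicing genes were again mostly lower, by smaller amounts. Of the 49 genes, 33 fell, 6 rose and 10 did not pass the test (edgeR, 13941 genes tested). Over all genes tested, 31.9% fell and 32.2% rose, 64.1% in all, and among the 7737 genes at least as abundant as the lowest of the 49, 41.2% fell and 34.8% rose. The median log2 fold change was -0.21, against 0.01 over all genes and -0.03 over the abundant set. The summed level went from 24223 ± 221 CPM (SD, n = 3) in DMSO to 21214 ± 110 CPM in RX-5902. None changed by 2-fold, compared with a 2-fold fall called for 3.57% of all genes tested. The groups did not overlap for 40 of the 49 genes, against 67.4% of all genes.

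Of the 13 SR genes, 8 fell and 2 rose with the compound (median log2 fold change -0.16). SRSF7, the export-coupled SR protein with the largest fall of the 49 genes here, stood at 318, 323 and 333 CPM in DMSO and 193, 190.3 and 194 CPM in RX-5902. All treated libraries were well below the controls, 1.69-fold lower (log2 fold change -0.75, SE 0.04, edgeR adjusted p = 4.4e-18). Its relative SRSF3 read 610.2, 631 and 654 CPM in DMSO and 613, 643 and 628 CPM in RX-5902, with overlapping groups and no call (log2 fold change -0.01, SE 0.04, edgeR adjusted p = 0.854). SRSF2 was at 338, 346 and 355 CPM and 220.1, 226 and 226 CPM, without overlap (log2 fold change -0.63, SE 0.04, edgeR adjusted p = 5.24e-16), while its opposite-strand neighbour MFSD11 rose by 0.93 on the log2 scale. SRSF8, its intronless relative, was at 18.7, 19.1 and 20.1 CPM in DMSO and 12.4, 12.2 and 13.3 CPM in RX-5902, also apart (log2 fold change -0.61, SE 0.07, edgeR adjusted p = 1.12e-08). SRSF1 was at 256, 255 and 269 CPM and 178, 182 and 166 CPM, lower in every treated library (log2 fold change -0.57, SE 0.04, edgeR adjusted p = 3.97e-14). SRSF9, its paralog, fell less, from 144, 151 and 151 CPM to 113, 116 and 126 CPM (log2 fold change -0.33, SE 0.04, edgeR adjusted p = 3.82e-08).

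Both transformer-2 genes were called in the compound experiment, in opposite directions. TRA2A stood at 89.7, 87.3 and 90.0 CPM in DMSO and 104, 103 and 99.4 CPM in RX-5902, higher in all treated libraries (log2 fold change 0.20, SE 0.04, edgeR adjusted p = 0.000114). TRA2B stood at 368, 374 and 369.7 CPM and 355, 346 and 345 CPM, lower in all treated libraries by a small amount (log2 fold change -0.09, SE 0.04, edgeR adjusted p = 0.0378). The TRA2B call was lost with upper-quartile scaling (edgeR adjusted p = 0.143), with a stricter filter (0.0616), when all 12 libraries were fitted together (0.534), and without DMSO replicate 2 (0.0803), RX-5902 replicate 2 (0.13) or RX-5902 replicate 3 (0.11). SRSF6 read 198, 201 and 209 CPM in DMSO and 156, 145 and 146 CPM in RX-5902 (log2 fold change -0.44, SE 0.04, edgeR adjusted p = 1.99e-11), and SRSF4 129, 135 and 131 CPM and 144, 140.0 and 148 CPM (log2 fold change 0.12, SE 0.04, edgeR adjusted p = 0.00725). In the treated libraries SRSF6 was lower and SRSF4 slightly higher than in every control, though SRSF4 was not called without DMSO replicate 1 (edgeR adjusted p = 0.0661) or with length correction (edgeR adjusted p = 0.0717). SRSF10 fell by a log2 fold change of -0.16, and SRSF5 and SRSF11 were not called (log2 fold changes 0.06 and 0.02).

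Among hnRNPs under RX-5902, 15 of 21 fell and 1 rose, with a median log2 fold change of -0.21. HNRNPAB (chr5:178204533-178211163), a relative of HNRNPD, fell most, from 385, 386 and 399.8 CPM in DMSO to 248, 259.8 and 250.1 CPM in RX-5902 without overlap (log2 fold change -0.63, SE 0.04, edgeR adjusted p = 5.61e-16). HNRNPDL was at 444, 456 and 486 CPM and 342, 333 and 312 CPM (log2 fold change -0.49, SE 0.04, edgeR adjusted p = 2.48e-12). HNRNPD was at 537, 554 and 579.8 CPM and 423, 427 and 406 CPM (log2 fold change -0.41, SE 0.04, edgeR adjusted p = 3.33e-11). All 3 relatives were lower in every treated library. HNRNPH3, an H-family protein, stood at 272, 256 and 273 CPM in DMSO and 192, 193 and 187 CPM in RX-5902 (log2 fold change -0.48, SE 0.04, edgeR adjusted p = 7.72e-13). HNRNPA3 stood at 465, 476 and 499.7 CPM and 372, 355 and 336 CPM (log2 fold change -0.44, SE 0.04, edgeR adjusted p = 2.38e-11), while its overlapping opposite-strand partner NFE2L2 rose by 0.58 on the log2 scale. Neither gene had overlapping groups.

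HNRNPLL was the only hnRNP gene called as higher under RX-5902, at 74.0, 72.9 and 74.8 CPM in DMSO and 98.4, 97.5 and 97.3 CPM in RX-5902, with all treated libraries above the controls (log2 fold change 0.40, SE 0.04, edgeR adjusted p = 3.92e-10). Its paralog HNRNPL was at 375, 366 and 365 CPM and 308, 317 and 326 CPM, lower in each treated library (log2 fold change -0.22, SE 0.04, edgeR adjusted p = 5.79e-06). HNRNPH1 and HNRNPH2, split by the knockdown, had overlapping groups here. HNRNPH1 stood at 988, 1010.0 and 1062 CPM in DMSO and 1004, 970.3 and 969 CPM in RX-5902 (log2 fold change -0.06, SE 0.04, edgeR adjusted p = 0.198), and HNRNPH2 at 88.2, 91.1 and 87.8 CPM and 92.1, 91.5 and 89.9 CPM (log2 fold change 0.03, SE 0.04, edgeR adjusted p = 0.491). HNRNPUL1 and HNRNPUL2 were not called either (log2 fold changes 0.04 and 0.01). HNRNPA2B1 read 1484, 1434 and 1505 CPM in DMSO and 1296, 1264 and 1272 CPM in RX-5902, a small fall without overlap (log2 fold change -0.21, SE 0.04, edgeR adjusted p = 1.11e-05). HNRNPA1 read 3294, 3319 and 3523 CPM and 3207, 3275 and 3201 CPM and was not called (log2 fold change -0.07, SE 0.04, edgeR adjusted p = 0.133). HNRNPF fell by -0.44, HNRNPR by -0.32 and HNRNPU by -0.30 in log2 fold change, and HNRNPK, HNRNPC, HNRNPA0, PTBP1 and HNRNPM by values from -0.23 to -0.08. The HNRNPM call was lost with upper-quartile scaling (edgeR adjusted p = 0.159), with a stricter filter (0.0683), and without DMSO replicate 2 or any one RX-5902 library (edgeR adjusted p from 0.0567 to 0.0988).

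Core genes and cofactors under RX-5902 comprised 10 that fell and 3 that rose of 15 (median log2 fold change -0.25). SF3A3 stood at 221, 219 and 214 CPM in DMSO and 158, 149.9 and 151 CPM in RX-5902, without overlap (log2 fold change -0.51, SE 0.04, edgeR adjusted p = 2.45e-13). SF3A1 was at 261, 251 and 243 CPM and 204, 213 and 210.0 CPM, lower in each treated library by less (log2 fold change -0.27, SE 0.04, edgeR adjusted p = 3.27e-07). SF3A2 was at 129, 139 and 129 CPM and 137, 161 and 155 CPM, with RX-5902 replicate 1 inside the range of the controls (log2 fold change 0.19, SE 0.05, edgeR adjusted p = 0.000599). The SF3A genes thus had the same signs as in the knockdown, in another order of size. SF3B3 read 548, 529 and 499 CPM in DMSO and 378, 384 and 378 CPM in RX-5902 (log2 fold change -0.47, SE 0.04, edgeR adjusted p = 2.01e-12). U2AF2 read 362, 372 and 355 CPM and 250.5, 268 and 273 CPM (log2 fold change -0.46, SE 0.04, edgeR adjusted p = 4.53e-12). In both, the treated libraries were all below the controls.

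Cofactors and the branch point protein supplied the core genes that rose beside SF3A2. RBM39 (chr20:35701347-35742312), a U2AF-like coactivator of splicing, stood at 319, 314 and 330.2 CPM in DMSO and 405, 394 and 403 CPM in RX-5902, above the controls in every treated library (log2 fold change 0.32, SE 0.04, edgeR adjusted p = 4.16e-09). RBM25 (chr14:73058532-73123899), which contacts the U1 snRNP, went the other way, from 129.5, 125 and 145 CPM to 111, 104 and 104 CPM (log2 fold change -0.32, SE 0.05, edgeR adjusted p = 2.93e-07). SF3B1 was at 619, 599 and 604 CPM in DMSO and 676, 646 and 635 CPM in RX-5902, slightly higher in each treated library (log2 fold change 0.10, SE 0.04, edgeR adjusted p = 0.0172). Its partner SF3B4 had overlapping groups although the test called a small fall (log2 fold change -0.13, SE 0.05, edgeR adjusted p = 0.0156), and this call was lost without DMSO replicate 1 (edgeR adjusted p = 0.134) or RX-5902 replicate 1 (0.1), with upper-quartile scaling (0.0509) and with length correction (log2 fold change -0.066, edgeR adjusted p = 0.193). The SF3B1 call was lost without DMSO replicate 2 (edgeR adjusted p = 0.133), DMSO replicate 3 (0.0557) or RX-5902 replicate 1 (0.0754), without a filter on low counts (0.0744), and with length correction, which took its log2 fold change to 0.048 (edgeR adjusted p = 0.261). SNRPA, PRPF3, PRPF8 and U2AF1 fell by log2 fold changes of -0.25, -0.27, -0.13 and -0.32. In 1 fit of all 12 libraries the calls of SNRPA (edgeR adjusted p = 0.125) and PRPF8 (0.614) were lost, as were those of SF3A2 (0.0556), SF3B1 (0.18), SF3B4 (0.487), SRSF10 (0.147), HNRNPA0 (0.0901), HNRNPC (0.108), HNRNPM (0.558) and PTBP1 (0.138), beside TRA2B above. SNRNP70 and SF3B2 were not called (log2 fold changes -0.04 and -0.07).

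**Figure D3:**
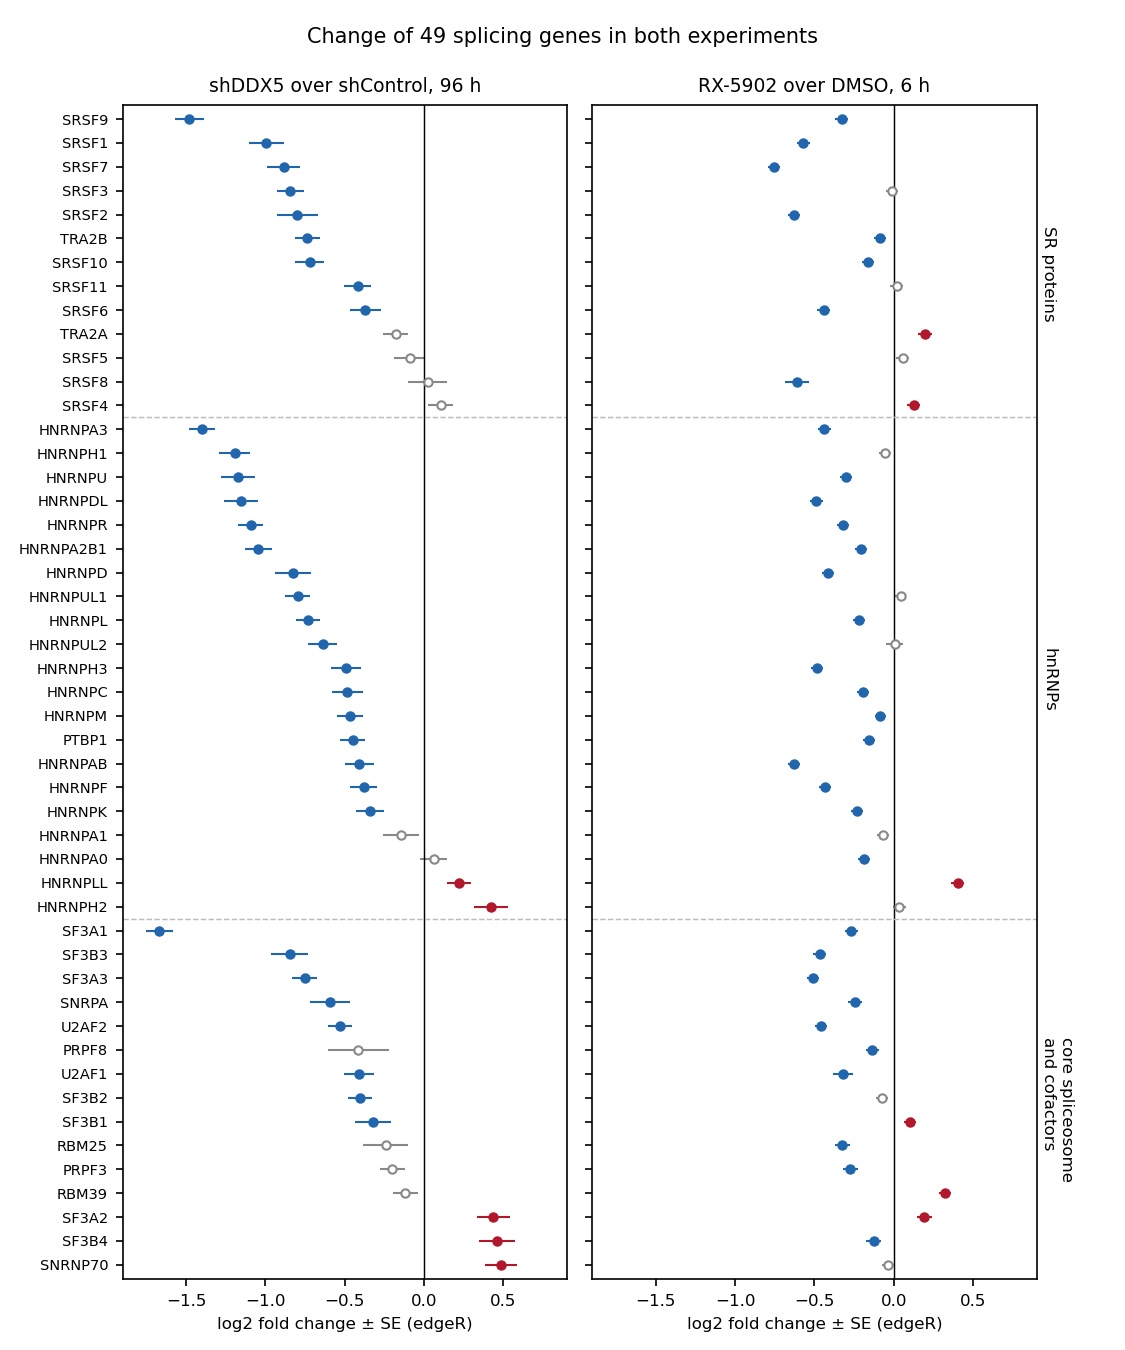
Log2 fold change ± SE (x axis) of each of the 49 splicing genes (y axis, by class) for shDDX5 over shControl and for RX-5902 over DMSO, on the same scale. Blue points fell, red points rose and open grey points were not called by edgeR. The knockdown values reach from -1.67 (SF3A1) to 0.48 (SNRNP70) and the compound values from -0.75 (SRSF7) to 0.40 (HNRNPLL).

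The 2 experiments share no library, so the calls can be set side by side. Of the 49 genes, 27 fell in both (55.1%), compared with 12.8% of the 13233 genes tested in both. Because 34 of the 49 fell with the knockdown and 33 with the compound, a large overlap follows in part from these counts. Those that rose in both were 2 (HNRNPLL and SF3A2), compared with 10.4% of the genes tested in both. SF3B4 was called up with the knockdown and down with the compound, and SF3B1 the reverse, but both compound calls and the SF3B1 knockdown call were lost with length correction. Across the 49 genes the log2 fold changes of the experiments had a Pearson r of 0.46 and a Spearman rho of 0.48, and across the 13233 genes 0.12 and 0.13, given as a description over genes that are not independent.

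A test of the difference on all 12 libraries (knockdown change minus compound change, in log2 units) called 30 of the 49 genes, 26 with the lower value in the knockdown and 4 with the higher one. Among 15386 genes tested, 28.6% were lower and 24.1% higher, 52.7% in all. SF3A1 differed most (-1.42, SE 0.09, edgeR adjusted p = 1.3e-08), followed by SRSF9 (-1.17, SE 0.11, edgeR adjusted p = 7.66e-07), HNRNPH1 (-1.16, SE 0.10, edgeR adjusted p = 3.29e-07), HNRNPA3 (-0.98, SE 0.09, edgeR adjusted p = 7.56e-07) and HNRNPU (-0.89, SE 0.11, edgeR adjusted p = 8.84e-06). SRSF3 fell in the knockdown and was not called under the compound, and the difference itself passed the test (-0.85, SE 0.09, edgeR adjusted p = 3.45e-06). SRSF7, by contrast, showed no called difference (-0.15, SE 0.12, edgeR adjusted p = 0.321), although without shDDX5 replicate 1 it did, by -0.26. Higher values in the knockdown than with the compound were called for SRSF8 (0.62, SE 0.15, edgeR adjusted p = 0.00274), SF3B4 (0.57, SE 0.14, edgeR adjusted p = 0.00306), SNRNP70 (0.50, SE 0.11, edgeR adjusted p = 0.00112) and HNRNPH2 (0.37, SE 0.12, edgeR adjusted p = 0.0193). RBM39 (-0.46, SE 0.08, edgeR adjusted p = 0.000355) and TRA2A (-0.39, SE 0.09, edgeR adjusted p = 0.0022) rose under RX-5902 and were lower in the difference. The number of called differences was 40 without shDDX5 replicate 1. Calls of the difference for HNRNPC (-0.30) and SF3A3 (-0.26) were near the threshold and lost in most fits that left out 1 library (edgeR adjusted p from 0.05 to 0.0849 where lost).

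**Figure D4:**
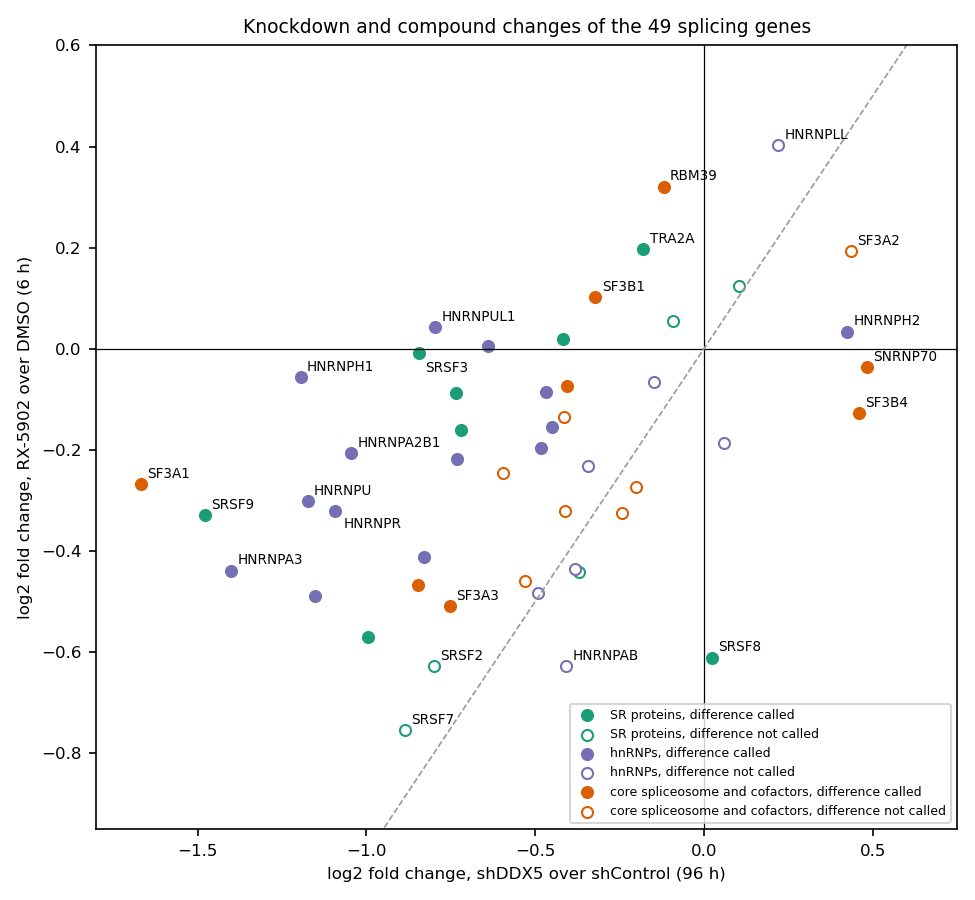
Each point is 1 of the 49 splicing genes, with its log2 fold change in the knockdown (x axis) and with RX-5902 (y axis), coloured by class. Filled points passed the test of the difference (30 genes), the dashed line marks equal changes, and the axes have different scales. SF3A1, SRSF9 and HNRNPA3 lie far to the left of the line and SRSF8 to its right.

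Promoter windows from the RefSeq table (GRCh38.p14) were at hand for 43 of the 49 genes, in 59 windows of 250 bases before a start, and were compared with all 35116 windows in that table. Motifs were searched as exact letters on both strands and counted separately, so matches of different motifs may overlap. CCGGAAGT was in 15.3% of the windows of the splicing genes and in 3.42% of all windows. It lay in the windows of HNRNPD, SF3A1, SF3A2, SF3A3, SF3B2, SF3B4, SRSF4, SRSF5 and U2AF2, a set with genes that rose, fell and were not called. The E-box CACGTG was in 15.3% against 6.34%, GGGCGG in 62.7% against 42.6%, CCAAT in 42.4% against 32.0% and TATAAA in 10.2% against 10.7%. CGCATGCG, the centre of the palindrome bound by NRF1, was in 6.78% against 1.73%, and TGACGTCA, the CRE palindrome, in none of the 59 windows and in 1.65% of all. With 1 more base required on each side (G before, C after), the NRF1 palindrome was in none of the 59 windows and in 1.03% of all, so its count depends on the letters searched. Both this palindrome and CTCGCGAG were shortened to their present letters after the counts of the longer forms were seen. The windows of the splicing genes had a median GC content of 65.2%, against 58.0% over all, and some share of the motif counts may go with base composition, which was not tested.

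The palindrome CTCGCGAG was in 8.47% of the windows of the splicing genes (5 genes) and in 0.874% of all windows. With T before and A after it also required, it was in 5.08% against 0.373%. The stretches around it are shown because, of the motifs searched, it had the largest ratio between these shares. Of the 5 genes, 3 (SRSF10, HNRNPH3 and HNRNPK) fell in both experiments, as did 55.1% of the 49 genes. Each line runs 5′ to 3′ on the gene's strand with the palindrome in capitals, at chr1:23980356-23980393 (minus strand), chr10:68331967-68332004 (plus strand), chr9:83980649-83980686 (minus strand), chr19:41262346-41262383 (plus strand) and chr1:29181901-29181925 (minus strand).
SRSF10: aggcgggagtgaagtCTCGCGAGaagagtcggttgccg
HNRNPH3: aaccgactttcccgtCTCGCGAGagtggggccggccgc
HNRNPK: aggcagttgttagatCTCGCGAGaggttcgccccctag
HNRNPUL1: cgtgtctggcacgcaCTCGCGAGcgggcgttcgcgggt
SRSF4: aagtggaagcgcgcgCTCGCGAGct
The palindrome began 51 bases before the RefSeq start used in SRSF10, 82 in HNRNPH3, 56 in HNRNPK, 196 in HNRNPUL1 and 10 in SRSF4. In SRSF10 and HNRNPH3 the stretch lies within the annotated gene (chr1:23964347-23980927 and chr10:68331174-68343193). The start used for these genes is therefore not the outermost annotated one. HNRNPUL1 fell in the knockdown alone, and SRSF4 was called only as a small rise with RX-5902. For SRSF10, HNRNPH3 and HNRNPK the log2 fold changes were -0.72, -0.49 and -0.34 in the knockdown and -0.16, -0.48 and -0.23 with RX-5902.

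Other genes of the splicing pathway were counted in 8 lists, to be read beside the shares over all genes tested. With the knockdown, 28.3% of all genes fell and 28.4% rose, or 35.7% each way without shDDX5 replicate 1. With RX-5902, 31.9% of all genes fell and 32.2% rose. Of 9 kinases that act on SR proteins, 2 rose and 3 fell with the knockdown (3 and 5 without shDDX5 replicate 1), and 4 rose and 1 fell with RX-5902. SRPK2 rose with the knockdown, from 27.3, 25.8 and 28.9 CPM in shControl to 43.3, 47.0 and 43.3 CPM in shDDX5, above all controls (log2 fold change 0.70, SE 0.09, edgeR adjusted p = 0.000225), while the nuclear kinases CLK1 (log2 fold change -0.54) and CLK2 (-0.40) fell. Under RX-5902, SRPK1, the main cytoplasmic SR protein kinase, fell from 155, 150.4 and 156 CPM to 119, 111 and 107 CPM (log2 fold change -0.45, SE 0.04, edgeR adjusted p = 3.03e-11). SRPK3 rose from a low level, with 1.16, 1.62 and 1.65 CPM in DMSO and 5.26, 4.94 and 5.43 CPM in RX-5902 (log2 fold change 1.81, SE 0.16, edgeR adjusted p = 1.34e-11).

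The Sm and LSm proteins, which form the rings around snRNAs, fell without exception under RX-5902, 14 of 14, with a median log2 fold change of -0.37. With the knockdown 6 of 14 fell, and 14 of 14 did so without shDDX5 replicate 1. SNRPD1 had the smallest p of the list in both experiments. It stood at 117, 121 and 117 CPM in shControl and 61.9, 45.6 and 46.2 CPM in shDDX5 (log2 fold change -1.21, SE 0.13, edgeR adjusted p = 9.91e-05), and at 125, 135 and 142 CPM in DMSO and 91.5, 91.3 and 93.4 CPM in RX-5902 (log2 fold change -0.54, SE 0.04, edgeR adjusted p = 1.44e-12). In neither experiment did its groups overlap. Of 14 other U1 and U2 snRNP proteins, 7 fell and none rose with the knockdown (11 fell and 1 rose without shDDX5 replicate 1), with the smallest p for U2SURP (log2 fold change -0.91, edgeR adjusted p = 0.000246). Under RX-5902 10 fell and 2 rose, with the smallest p for the branch point binding protein SF1 (log2 fold change -0.56, edgeR adjusted p = 1.48e-14). Of 14 other tri-snRNP proteins, 9 fell and 1 rose in each experiment, and 12 fell and 1 rose with the knockdown without shDDX5 replicate 1. The smallest p belonged to SNRNP27 with the knockdown (log2 fold change -1.89, edgeR adjusted p = 1.52e-05) and SNU13, which binds the U4 snRNA kink-turn, with the compound (log2 fold change -1.10, edgeR adjusted p = 3.48e-20).

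Later steps of splicing and its coupling to decay were counted next, beside the same shares over all genes. Of 22 genes of the Prp19 complex and catalytic step factors, 8 fell and 2 rose with the knockdown (13 and 5 without shDDX5 replicate 1). Under RX-5902, 6 fell and 6 rose, each a smaller share than over all genes. PRPF18, a second-step factor, fell by a log2 fold change of -1.29 in the knockdown, and PRPF19 itself by -0.67 with the compound. SYF2 was among those that rose with the compound (log2 fold change 0.47). Of 9 minor spliceosome proteins, 3 fell and 2 rose with the knockdown (4 and 3 without shDDX5 replicate 1), and 1 fell and 3 rose with the compound. With the knockdown, ZRSR2 was among those that fell (log2 fold change -0.92) and ZMAT5 among those that rose (0.53). With the compound, SNRNP25 fell (-0.67), and RNPC3 (0.30) and SNRNP48 (0.18) were among those that rose. Of 16 exon junction and nonsense-mediated decay factors, 7 fell and 1 rose with the knockdown (10 and 3 without shDDX5 replicate 1), and 10 fell and 4 rose with RX-5902. The exon junction gene MAGOHB fell in both (log2 fold changes -1.18 and -0.66), and the core helicase EIF4A3 was at -0.55 with the compound. Of 36 other splicing regulators, 18 fell and 2 rose with the knockdown (25 and 5 without that replicate), and 15 fell and 12 rose with RX-5902. FUBP1, TAF15 and SFPQ had the smallest p in the knockdown (log2 fold changes -1.34, -1.39 and -0.98).

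**Figure D5:**
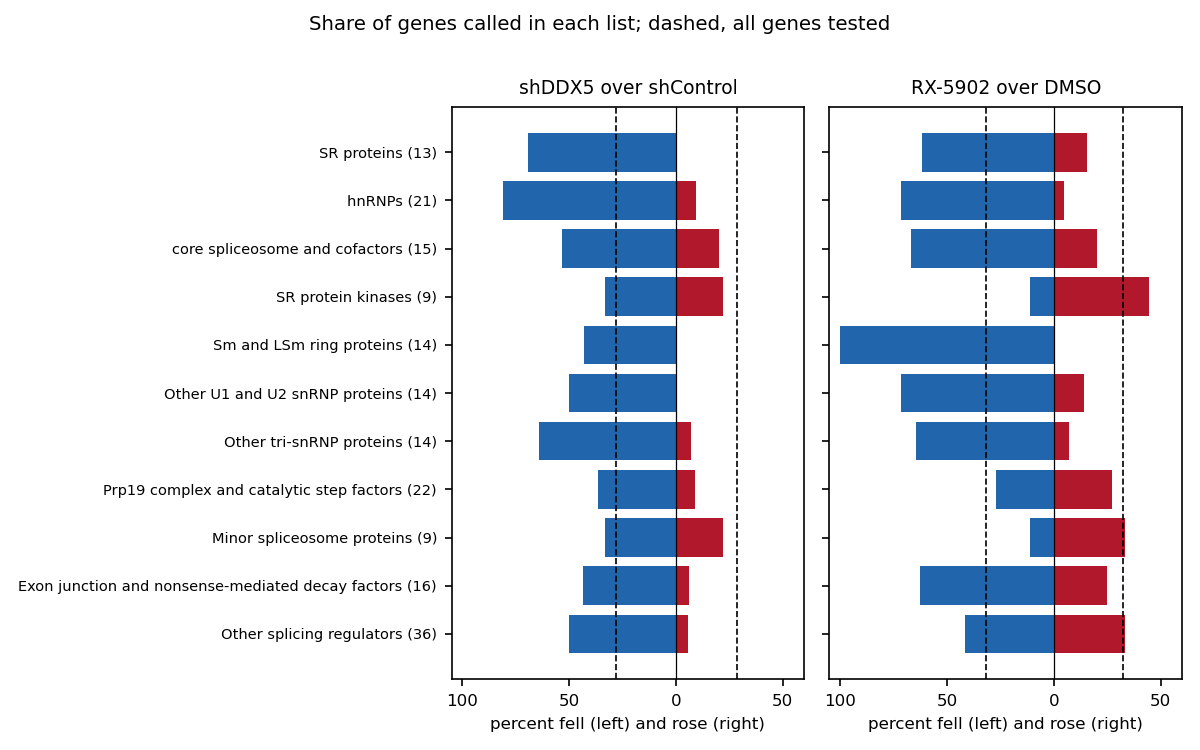
Percent of tested genes that fell (blue, to the left) and rose (red, to the right) in the 3 classes of the 49 splicing genes and in 8 further lists of splicing genes (y axis, number tested in parentheses), for each experiment. Dashed lines mark the shares over all genes tested (28.3% and 28.4% with the knockdown, 31.9% and 32.2% with RX-5902). The bar for falling genes passes its dashed line in each of the 3 classes in both experiments. With RX-5902 it does not pass the line for SR protein kinases, minor spliceosome proteins or the Prp19 complex and catalytic step factors.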

How the data were processed

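The 12 MOLM-14 libraries were grouped by their labels (3 per group). Raw read counts per gene were deposited by the authors, in a table for each experiment. The build GRCh38.p13 and the tools STAR 2.7.9a, featureCounts (Subread 2.0.3), Trim Galore 0.6.7, Picard 2.8.0, DESeq2 1.46.0 and R 4.4.2 stand in the submitters' processing notes. Exon lengths (used for CPM per kb) and gene positions came from the same tables, per the file headers. The annotation release, strand setting and handling of duplicates and multi-mapping reads are not given in the sources used here. In both tables the line of 1 gene, wrapped by 2 extra lines, was rejoined. Symbols were matched to 59984 identifiers with their version and 1773 without it, and 149 had none.

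Each experiment was fitted alone with edgeR 4.0.16 in R 4.3.3: default expression filter, TMM factors, two-sided quasi-likelihood F test, with p-values adjusted by Benjamini-Hochberg over all genes and calls below 0.05. Standard errors were taken from the F statistic. A fit of all 12 libraries tested the difference between experiments. Alternatives were other scaling factors, filters, DESeq2 1.42.0, length correction, a replicate block and leaving out each library. Deviations of same-numbered libraries from their group means correlated between -0.07 and 0.03. These values gave no sign of pairing by number, but with 3 libraries a group they cannot exclude it. The 49 genes, the lists and the rule for genes shown per library (the largest called changes per class, the largest differences, and paralog pairs) were chosen with earlier results of these data known. The result of 1 gene is not reported here.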

Additional observations from a re-analysis of the deposited data

How the results depend on the processing

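Leaving out 1 library at a time gave 36 to 45 called genes of the 49 with the knockdown, 36 to 39 with RX-5902 and 28 to 40 for the difference, with medians from -0.49 to -0.44 and from -0.23 to -0.20, and 55 to 115 and 91 to 97 called genes over the 8 further lists. The highest knockdown counts, 45, 40 and 115, came without shDDX5 replicate 1. The knockdown median was -0.40 with upper-quartile factors, -0.48 without an expression filter, -0.45 with a stricter filter, -0.45 in 1 fit of all 12 libraries and -0.43 with length correction, without or with the replicate block. The compound median was -0.18 with upper-quartile factors, -0.23 without a filter, -0.22 with DESeq2, -0.17 in the 12-library fit and -0.22 with length correction, without or with the replicate block. The replicate block gave 37 called genes in each experiment and 29 for the difference. The 12-library fit called 28 genes with RX-5902 (24 fell and 4 rose) in place of 39. The cause of these shifts was not tested. Direction and call held in every alternative run for 33 of 39 called genes with the knockdown, 27 of 39 with RX-5902 and 28 of 30 differences. No called gene changed sign. Among genes not called, the sign changed in some fits. With the knockdown, leaving out 1 library gave -0.072 to 0.110 for SRSF8 and -0.00206 to 0.093 for HNRNPA0, and RBM39 was at 0.071 with length correction and 0.066 with the replicate block added. With RX-5902, leaving out 1 library gave -0.043 to 0.00935 for SRSF3, -0.022 to 0.041 for SRSF11 and -0.034 to 0.017 for HNRNPUL2. SRSF3 was at 0.016 with upper-quartile factors, 0.00189 with the stricter filter and 0.029 in the 12-library fit, in which SNRNP70 was at 0.000716. SRSF11 was at -0.021 with length correction, without or with the replicate block, and HNRNPUL2 at -0.012 without a filter and -0.00813 with DESeq2. Counts per gene do not resolve isoforms, and with 3 libraries a group small changes cannot be told from spread.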
